A study of Mus musculus with 6 samples.

Results

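The imprinted Dlk1-Meg3 domain of mouse chromosome 12 was examined through 7 genes, the coding genes Dlk1, Rtl1, Begain and Dio3 and the noncoding RNA genes Meg3, Rian and Mirg, chosen as the rows with those symbols in gene count tables of 2 cell types. All 7 are listed in both tables, out of 13001 genes that both list and 16279 genes listed in either. Of the 7 genes, 4 (Meg3, Dlk1, Rian and Rtl1) were higher in the cardiac cultures, 1 (Dio3) was lower, 1 (Mirg) did not pass the test, and 1 (Begain) had too few counts to be tested. The test was called at an adjusted p under 0.05, and 61.4% of the 12471 genes tested were called, 31.7% higher in the cardiac cultures and 29.7% lower, so a call alone sets no member apart from other genes.

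The domain is a classic imprinted cluster, in which the copy inherited from one parent is used and the other is kept silent. Dlk1, Rtl1 and Dio3 are expressed mainly from the paternal chromosome, and Meg3, Rian and Mirg from the maternal chromosome, where they are read in the same direction and host many microRNAs and small nucleolar RNAs. A control region between Dlk1 and Meg3, methylated on the paternal chromosome, sets this choice, and the level of the maternal RNAs is often used as a sign of the quality of pluripotent cells.

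The samples were F1 male mouse embryonic stem cells (mESCs), from C57BL/6 mothers (C57BL/6J in the study's methods) and CAST/EiJ fathers, and cardiac precursor cell cultures (CPCCs) grown from them, with 3 libraries of each. The mESCs came from separate blastocysts and were kept in 2i medium with LIF, which holds mESCs in an undifferentiated state, and the CPCCs were passaged in a medium that enriches cardiac stem and progenitor cells. The CPCCs are mixed cultures, and the 3 mESC clones and their CPCCs were not matched here because the columns carry no clone or replicate number. The mESC libraries carry the column names S01 to S03 and the CPCC libraries S04 to S06, and values are given in that order. Values are estimated counts of polyA+ RNA reads per gene with no split by parental allele, so no statement about the active allele follows from them.

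Total counts ranged from 6442639 to 11436062 per library, and the CPCC libraries were the deeper ones. Levels are counts scaled to a library of 1000000 counts (CPM) after TMM normalization on the genes shared by the tables. In a single library, 3 counts equal between 0.298 and 0.463 CPM. All 6 mESC markers on a list including Pou5f1 and Nanog were lower in CPCCs, with a summed level of 2017 to 2568 CPM in mESCs and 103.7 to 168.8 CPM in CPCCs. The 9 cardiac markers (4 tested and 1 higher) summed to 10.7 to 17.4 CPM in mESCs and 50.9 to 167.1 CPM in CPCCs, and Nkx2-5, Mef2c, Myh6 and Myh7 are listed for CPCCs alone. Markers of other cells moved as well: 7 mesenchymal genes, such as Col1a1 and Vim (5 tested and 5 higher), summed to 100.1 to 137.2 CPM in mESCs and 12629 to 19596 CPM in CPCCs, and 5 neural genes (4 tested and 4 higher) to 40.6 to 46.4 and 563.0 to 583.1 CPM. Of 5 skeletal muscle genes, Myod1, Myf5 and Pax7 are in neither table, and the others summed to 18.7 to 56.4 CPM in CPCCs. The 3 genes of fat cell precursors summed to at most 5.19 CPM in any library. The 5 endoderm genes (2 tested and 2 higher) summed to 1.70 to 7.17 CPM in mESCs and 31.4 to 55.3 CPM in CPCCs. Of the 3 endothelial genes, only Pecam1 is listed for mESCs, at 86.0 to 94.3 CPM, and it was called lower. Cdh5 and Kdr are listed for CPCCs alone, where the 3 genes summed to 9.86 to 18.9 CPM. Genes that a table leaves out add nothing to these sums. The part of these other cells in the changes of the domain was not tested. In bulk RNA, fewer cells of a type cannot be told apart from less RNA per cell.

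The genes span 1248.9 kb of the GRCm38 (mm10) build. In order along chromosome 12, as the tables give their bounds, they are Begain (109032182 to 109068218, minus strand), Dlk1 (109452823 to 109463337, plus), Meg3 (109540996 to 109571730, plus), Rtl1 (109590169 to 109595404, minus), Rian (109603945 to 109661712, plus), Mirg (109734981 to 109749458, plus) and Dio3 (110279230 to 110281098, plus). The end of a table interval is 1 base past the last base of the gene. Dlk1 ends 77.7 kb before Meg3, Meg3 ends 18.4 kb before Rtl1, and Rtl1 lies 8.54 kb before Rian. Begain and Dio3 are the distant members, 384.6 kb before Dlk1 and 529.8 kb after Mirg.

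The windows of 250 bases before the start of Meg3, Dio3 and Dlk1 are shown. Meg3 was chosen for the noncoding side of the domain and Dlk1 as the coding gene next to the control region. Dio3 was chosen as the only member called lower in CPCCs. The windows are RefSeq sequence of GRCm38.p6 on the plus strand, which is the strand of all 3 genes. Capitals mark matches on either strand to TGACGTCA (the cAMP response element, held by 1.55% of 32817 windows of the same length), TATAAA (the core promoter element that places the start of transcription, held by 12.4%) and TGCCGC (the hexamer of ZFP57, a protein that protects imprints, held by 8.68%).
Meg3, chr12:109540746-109540995: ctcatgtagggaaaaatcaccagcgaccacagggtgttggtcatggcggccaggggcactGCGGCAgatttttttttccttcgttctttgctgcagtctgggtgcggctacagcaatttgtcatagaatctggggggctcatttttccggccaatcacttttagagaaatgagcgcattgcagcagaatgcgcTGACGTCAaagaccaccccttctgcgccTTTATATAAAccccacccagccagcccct
Dio3, chr12:110278980-110279229: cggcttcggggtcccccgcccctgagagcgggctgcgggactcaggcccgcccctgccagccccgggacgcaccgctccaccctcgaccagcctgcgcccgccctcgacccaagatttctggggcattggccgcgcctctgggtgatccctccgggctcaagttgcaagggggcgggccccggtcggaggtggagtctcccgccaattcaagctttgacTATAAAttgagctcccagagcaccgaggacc
Dlk1, chr12:109452573-109452822: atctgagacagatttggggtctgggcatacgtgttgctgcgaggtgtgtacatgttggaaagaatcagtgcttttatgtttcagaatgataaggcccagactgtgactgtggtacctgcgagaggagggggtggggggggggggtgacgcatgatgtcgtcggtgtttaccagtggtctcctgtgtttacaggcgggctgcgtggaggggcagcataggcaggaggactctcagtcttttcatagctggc
The Meg3 window holds the cAMP response element with its first base 57 bases before the start, overlapping TATA box matches on both strands that begin 29 and 25 bases before it, and a ZFP57 hexamer on the minus strand 190 bases before it. The Dio3 window holds a TATA box 31 bases before the start. The windows of Dlk1, Begain, Rian and Mirg hold none of the 3 motifs, and 6 of the 7 genes matched a window, Rtl1 being the exception. CpG dinucleotides numbered 37 before Begain, 21 before Dio3, 10 before Meg3, 10 before Mirg, 8 before Dlk1 and 0 before Rian, against a median of 6 over all windows.

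A second set of sequences bears on how counts of Rtl1 can be read. Rtl1 lies opposite the maternal transcription unit, and the opposite strand of its interval carries 6 microRNA hairpins, whose precursor RNA is complementary to the Rtl1 message. The library kit does not mark strand and the counting is not stated to have used it, so reads of Rtl1 and of this antisense RNA cannot be told apart. Their 11 mature microRNAs (RefSeq, GRCm38.p6, plus strand, from chr12:109590459-109590479 for the first to chr12:109595366-109595387 for the last) are given with the seed, bases 2 to 8, in capitals.
mmu-miR-431-5p: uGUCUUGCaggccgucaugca
mmu-miR-431-3p: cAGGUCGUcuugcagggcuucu
mmu-miR-433-5p: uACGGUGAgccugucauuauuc
mmu-miR-433-3p: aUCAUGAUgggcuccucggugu
mmu-miR-127-5p: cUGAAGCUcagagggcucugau
mmu-miR-127-3p: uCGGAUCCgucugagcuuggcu
mmu-miR-434-5p: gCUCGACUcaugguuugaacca
mmu-miR-434-3p: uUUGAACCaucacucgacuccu
mmu-miR-432: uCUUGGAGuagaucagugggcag
mmu-miR-136-5p: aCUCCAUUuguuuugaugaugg
mmu-miR-136-3p: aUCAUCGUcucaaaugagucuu
No 2 of these 11 share a seed. Between the start of Meg3 and the end of Mirg, RefSeq places 54 hairpins on the strand of Meg3, 10 of them inside Mirg, 3 inside Rian and 1 inside Meg3. None of the hairpins of the domain has a row in either table, so the counts speak of the long host RNAs and not of the microRNAs.

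Meg3, a long noncoding RNA known as a growth suppressor, was the most abundant member in counts in every library. From S01 to S03 it had 363, 942 and 751 counts, and from S04 to S06 it had 4557, 5805 and 4475 counts. After normalization the mESC libraries were at 56.1, 138.6 and 109.8 CPM, and the CPCC libraries reached 453.0, 703.9 and 512.8 CPM. Every CPCC library was above every mESC library, and S01 was the lowest of the 6. The mean rose from 101.5 ± 41.9 CPM (SD, n = 3) to 556.6 ± 131.1 CPM (SD, n = 3), which is 5.48-fold or 2.45 on the log2 scale (standard error, SE, 0.33). The adjusted p was 0.000217 in edgeR's quasi-likelihood test, where p-values were adjusted by the Benjamini-Hochberg method over 12471 genes, and every adjusted p given below comes from that edgeR test unless another fit is named. A second gene on the opposite strand, Gm26906, lies within Meg3 in the GENCODE M21 annotation, and its reads cannot be told apart from those of Meg3 without strand.

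Rian, the next RNA downstream and a host of small nucleolar RNAs, rose as well. It had 7.57, 12.1 and 13.6 CPM from S01 to S03, and 34.7, 52.0 and 50.2 CPM from S04 to S06. The 2 cell types did not overlap, and S01 and S04 were the low libraries of their cell types, as for Meg3. The log2 fold change was 2.04 (SE 0.29, edgeR adjusted p = 0.000296).

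Mirg, the last of the 3 RNAs and the host of the largest group of microRNA hairpins among the members, moved least. It had 2.16, 4.85 and 5.41 CPM from S01 to S03, from 14, 33 and 37 counts, and 5.77, 8.61 and 7.22 CPM from S04 to S06, from 58, 71 and 63 counts. All 3 CPCC libraries were above the mESC libraries, by a narrow margin between S03 and S04. Its log2 fold change of 0.79 (SE 0.44) did not pass the test (edgeR adjusted p = 0.150), which does not show that Mirg was unchanged. All 6 members that were tested were without overlap between the cell types, against 69.7% of all genes tested. Begain, which was not tested, did overlap, and Dio3 passed the filter on low counts through its mESC libraries alone. No trait of the domain is read from so few genes.

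Taken as 1 unit, the summed counts of Meg3, Rian and Mirg had a log2 fold change of 2.38 (SE 0.32, edgeR adjusted p = 0.000214). Meg3 supplies most of this sum. Within a library, the ratio of Meg3 to Mirg counts was 25.9, 28.5 and 20.3 from S01 to S03, and 78.6, 81.8 and 71.0 from S04 to S06. The ratio was therefore higher in every CPCC library, with means of 24.9 ± 4.21 (SD, n = 3) and 77.1 ± 5.51 (SD, n = 3). The ratio of Rian to Mirg also separated the cell types, at 2.48 to 3.50 in mESCs and 6.02 to 6.95 in CPCCs. The ratio of Meg3 to Rian overlapped, at 7.41 to 11.5 in mESCs and 10.2 to 13.5 in CPCCs. These ratios do not depend on the scaling of libraries, and no test was made of them.

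**Figure D1:**
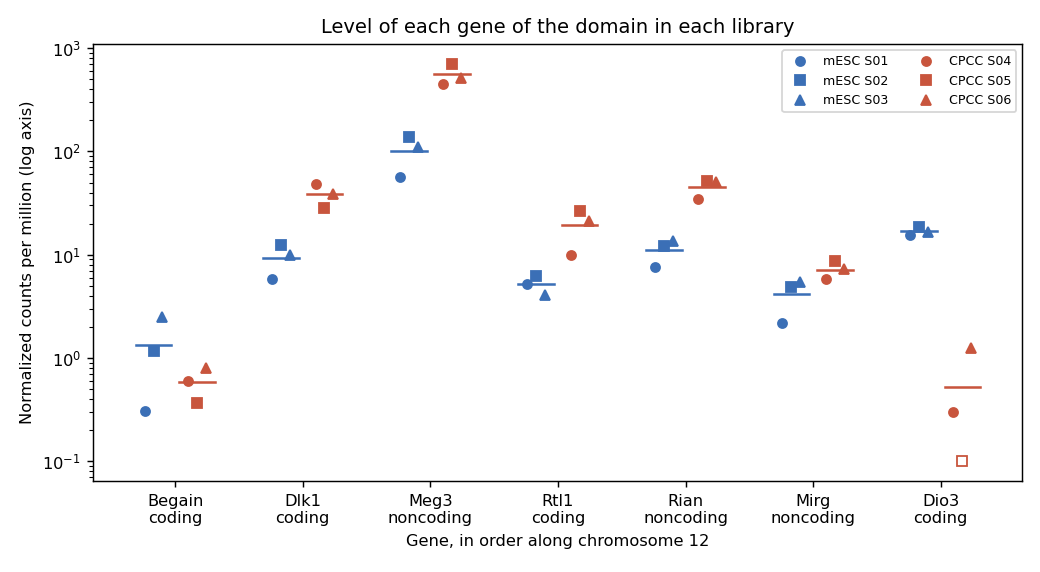
Normalized CPM (log axis) of the 7 genes in their order along chromosome 12, with a point per library (blue mESC, red CPCC) and a line at the mean of 3 libraries. The open square stands for Dio3 in S05, which had 0 counts and is drawn at the foot of the axis. Meg3, Dlk1, Rian and Rtl1 sit higher in CPCCs and Dio3 sits lower.

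Among the coding genes, Dlk1 encodes a membrane protein of the Delta/Notch family that holds back the maturation of fat cell precursors. It had 5.87, 12.4 and 9.95 CPM from S01 to S03, and 48.0, 28.5 and 38.5 CPM from S04 to S06. The cell types did not overlap, and S04, the lowest CPCC library for Meg3, Rtl1, Rian and Mirg, was the highest for Dlk1. The mean went from 9.39 ± 3.28 CPM (SD, n = 3) to 38.3 ± 9.76 CPM (SD, n = 3). The log2 fold change was 2.03 (SE 0.32, edgeR adjusted p = 0.000644), or 4.08-fold.

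Rtl1, a gene derived from a retrotransposon and needed in the placenta, had 5.25, 6.18 and 4.10 CPM from S01 to S03, and 9.84, 26.7 and 21.2 CPM from S04 to S06. All CPCC libraries were above the mESC libraries, and S04 stood nearest to them. The log2 fold change was 1.89 (SE 0.41, edgeR adjusted p = 0.00331). The value without S04 was 2.22 and without S05 it was 1.58. Since reads of the antisense RNA may be included, this is the change of the 2 strands together.

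Dio3 encodes the deiodinase that inactivates thyroid hormone, and it moved opposite to the other called members. It had 100, 126 and 114 counts from S01 to S03, or 15.4, 18.5 and 16.7 CPM, and 3, 0 and 11 counts from S04 to S06, or 0.298, 0 and 1.26 CPM. The mESC libraries lay close together, and in CPCCs the counts of S04 and S05 did not exceed 3. The log2 fold change was −4.98 (SE 0.72, edgeR adjusted p = 0.000362), which is 31.6-fold lower. The size of the fall rests on few CPCC counts: it was −6.56 without S06 and −4.44 without S05. Dio3 passed the filter on low counts through its mESC libraries alone.

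Begain, a gene for a protein of synapses at the far end of the cluster, had 2, 8 and 17 counts from S01 to S03, and 6, 3 and 7 counts from S04 to S06. The mESC levels of 0.309, 1.18 and 2.49 CPM overlap the CPCC levels of 0.596, 0.364 and 0.802 CPM. It did not pass edgeR's filter. In the fit without a filter its log2 fold change was −1.12 (SE 0.87, edgeR adjusted p = 0.293), so a difference was not detectable at this depth.

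Per kb of exon, levels can be compared between genes. Lengths are the union of annotated exons in GENCODE M21, from 2.03 kb for Dio3 to 18.2 kb for Rian. In mESCs, Dio3 was first at 8.32 ± 0.765 CPM per kb (SD, n = 3) and Meg3 second at 5.61 ± 2.31, and their libraries overlapped. Dlk1 followed at 1.66 ± 0.580 CPM per kb, apart from Meg3 above it and from Rtl1 below it. Rtl1 (0.814 ± 0.164), Rian (0.608 ± 0.172), Mirg (0.568 ± 0.238) and Begain (0.300 ± 0.249) came next, each overlapping its neighbour in this order.

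In CPCCs the order began with Meg3 at 30.8 ± 7.25 CPM per kb (SD, n = 3) and Dlk1 at 6.78 ± 1.73, which did not overlap. Rtl1 at 3.03 ± 1.35 lay below Dlk1 in every library and overlapped Rian at 2.50 ± 0.522. Mirg at 0.987 ± 0.195 lay below Rian and above Dio3 (0.256 ± 0.325), and Dio3 overlapped Begain (0.133 ± 0.0498). Dio3 thus moved from the first place to the sixth of 7. The places of Rian and Mirg depend on the length taken. Over the longest annotated transcripts, Rian had 1.37 CPM per kb in mESCs and 5.64 in CPCCs, above Rtl1 in both, and Mirg had 1.08 in mESCs, also above Rtl1. With exons limited to the table intervals, Mirg (0.985) was above Rian (0.608) in mESCs.

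**Figure D2:**
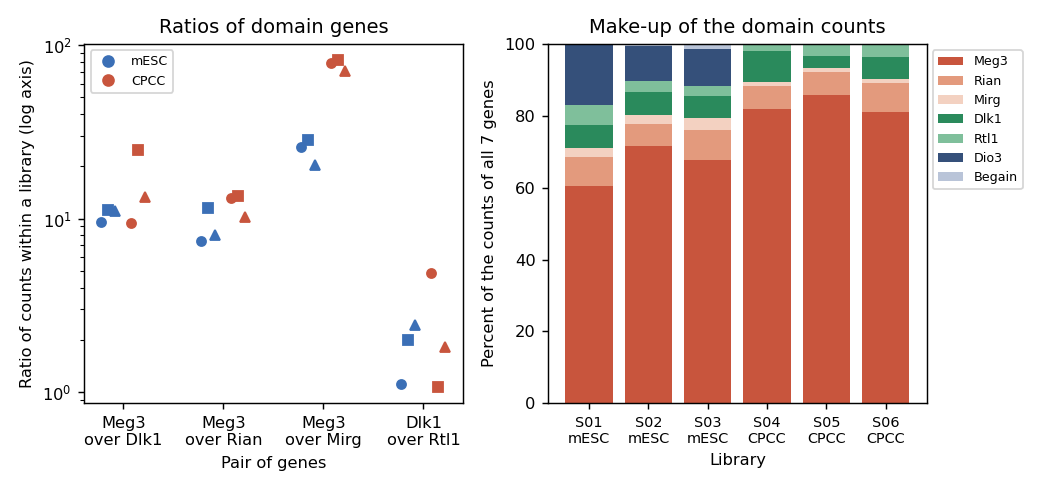
Left, ratios of counts of pairs of domain genes within each library (log axis, blue mESC, red CPCC), of which Meg3 over Mirg separates the cell types and the other 3 pairs overlap. Right, percent of the summed counts of the 7 genes that each gene supplies in each library, where Meg3 takes 60.5 to 71.5% in mESCs and 81.1 to 85.8% in CPCCs and Dio3 takes 9.57 to 16.7% in mESCs and at most 0.199% in CPCCs.

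The noncoding RNAs supplied 71.0, 80.3 and 79.5% of the counts of the 7 genes from S01 to S03, and 89.4, 93.2 and 90.2% from S04 to S06. The ratio of noncoding to coding counts was 2.45, 4.07 and 3.88 in mESCs and 8.40, 13.8 and 9.23 in CPCCs. It was higher in all 3 CPCC libraries, and the mean log2 ratio was 1.60 higher there. Most of that difference came with Dio3: with Dio3 left out of the coding sum the ratio was 5.76, 7.89 and 7.80 in mESCs and 8.44, 13.8 and 9.42 in CPCCs, and the log2 difference was 0.54. Meg3 against Dlk1 alone gave 9.55, 11.2 and 11.0 in mESCs and 9.43, 24.7 and 13.3 in CPCCs, which overlap. The ratio of Dlk1 to Rtl1, 2 paternally expressed genes, ranged from 1.12 to 2.43 in mESCs and from 1.07 to 4.88 in CPCCs, S04 being the highest. Rtl1 counts may hold reads of its maternal antisense RNA, here and in the coding sums above. These ratios and shares are descriptions of counts and were not tested.

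Within 1 Mb of its ends and between its members the tables list 28 other genes, 14 before Begain, 13 after Dio3 and 1 between. Of the 22 that were tested, 7 were higher and 7 lower in CPCCs, near the 31.7 and 29.7% of all genes tested, with a median log2 fold change of −0.08 against 0.03. The changes of largest size were those of Eml1, a microtubule-associated protein (log2 fold change 5.39, SE 0.48), Mok, a protein kinase (−3.00, SE 0.25), and Hsp90aa1, a stress-inducible chaperone (−2.65, SE 0.21). The nearest tested genes beyond the members were Wdr25 on the side of Begain, at −1.04 (SE 0.46, edgeR adjusted p = 0.0773), and Ppp2r5c on the side of Dio3, at −0.39 (SE 0.14, edgeR adjusted p = 0.0383).

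The gene between the members is Dio3os, a noncoding RNA on the opposite strand that ends before Dio3 begins. It is listed for mESCs, with 7, 18 and 12 counts from S01 to S03, and is missing from the CPCC table, which lists genes with at least 10 counts over its libraries. No fold is given for it, since its CPCC counts below that limit are unknown.

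**Figure D3:**
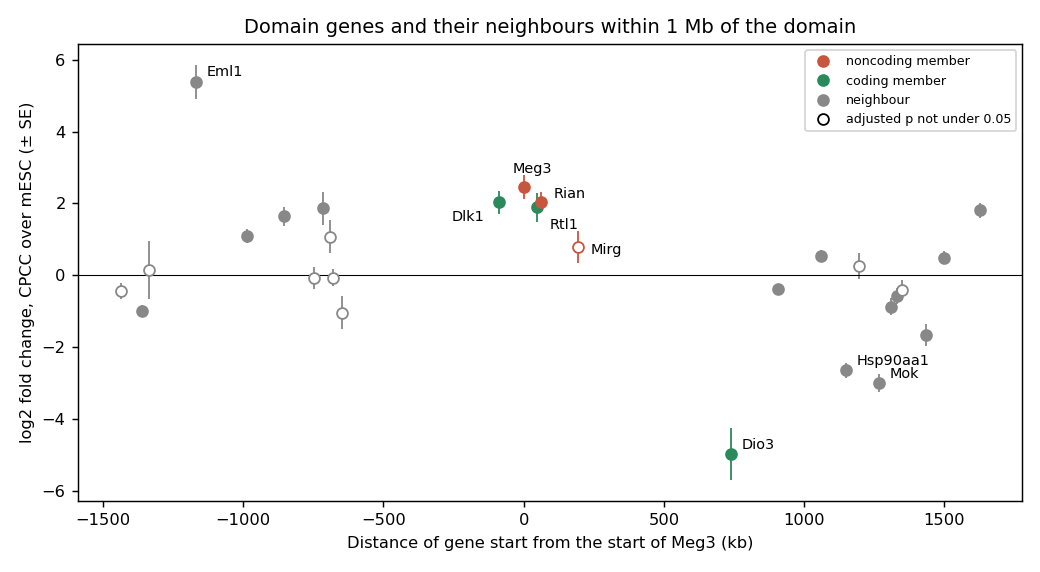
Log2 fold change of CPCCs over mESCs (± SE) against the distance of each gene's start from the start of Meg3, for the 6 tested members (red noncoding, green coding) and 22 tested neighbours (grey), with open points where the adjusted p was not under 0.05. Meg3, Dlk1, Rian and Rtl1 lie between 1.89 and 2.45 and Dio3 at −4.98, and the neighbours lie on both sides of 0.

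Genes that are known to place, keep or remove the imprint were taken as a list of 16, and all were tested. Of these, 12 were lower and 2 higher in CPCCs, beside 29.7 and 31.7% of all genes, with a median log2 fold change of −1.64 against 0.03. Dppa3, which protects imprints in the early embryo, had −4.91 (SE 0.39), Jarid2, a partner of the Polycomb complex, −2.78 (0.37), and Tet1, which oxidizes methylated cytosine, −2.62 (0.37). Zfp57 fell by 1.98 on the log2 scale (0.25) and Trim28, its partner, by 2.07 (0.26). The 2 that rose were the DNA methyltransferase Dnmt3a (1.28, SE 0.17) and Aff3, known to bind the control region of this domain (1.80, SE 0.26). Zfp445 (0.01, SE 0.18) and Dnmt3l (−0.62, SE 0.54) did not pass the test. The list was not matched for genes that fall as cells leave the mESC state, and no change of imprints was measured.

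**Figure D4:**
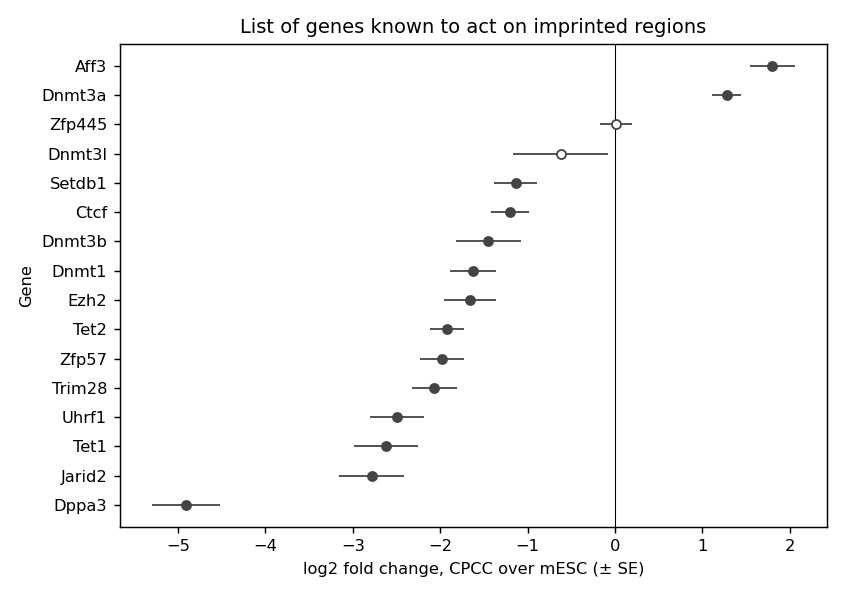
Log2 fold change of CPCCs over mESCs (± SE) for 16 genes known to act on imprinted regions, with open points where the adjusted p was not under 0.05. Of these genes 12 lie below 0 and pass the test, and Dnmt3a and Aff3 lie above 0 and pass it.

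Dlk1 protein is known to act on Notch signalling. On a list of 10 genes of that pathway, 8 were tested, 4 were higher and 2 lower in CPCCs, beside 31.7 and 29.7% of all genes, with a median log2 fold change of 0.77 against 0.03, and nothing particular to the pathway is read from so few genes. The receptors Notch3 (2.94, SE 0.23), Notch1 (1.69, 0.20) and Notch2 (1.47, 0.19) rose, as did the target gene Hes1 (0.64, 0.20). Notch4 (−1.18, SE 0.33) and Rbpj, the DNA-binding partner of the receptors (−0.75, 0.20), fell, and 1 Notch gene was called lower when S01 or S03 was left out. Dlk2, the closest relative of Dlk1, is listed for CPCCs alone, at 1.29, 3.28 and 1.72 CPM from S04 to S06.

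For Dio3 the list held 8 genes of thyroid hormone handling, of which 4 were tested. The receptor Thra (log2 fold change 1.25, SE 0.30) and its partner Rxra (0.95, 0.23) rose while Dio3 fell, and Klf9, a target gene of the hormone, was lower (−1.29, 0.21). The other deiodinases were scarce: Dio1 is listed for mESCs alone at 0.293 to 0.883 CPM and Dio2 for CPCCs alone at 0.115 to 1.29 CPM.

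Imprinted genes of other chromosomes or domains give a scale for the size of these changes. Of 18 on the list, 17 were tested, 12 were higher and 1 (Grb10) lower in CPCCs, beside 31.7 and 29.7% of all genes, with a median log2 fold change of 3.82 against 0.03. Nnat (8.94, SE 0.51) and H19 (7.63, 0.32) had changes of larger size than any member of the Dlk1-Meg3 domain. Igf2 (5.81, 0.49) lay between the −4.98 of Dio3 over all libraries and its −6.56 without S06, in size.

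The genes whose log2 CPM followed a member most closely were sought among all tested genes, over the 6 libraries of 2 cell types, which share their depth and normalization. Pearson's r was 0.998 for Ttc23, 0.997 for Zfp202 and 0.997 for Cadps with Meg3. For Dlk1 the closest were Cyth1, Repin1 and Dact1 (each r = 0.995), and for Rian 4931440P22Rik (0.999), Tspan18 (0.998) and Rbmx (0.996). Rtl1 was closest to Bpgm (0.999), Ephb1 (0.996) and Bdh2 (0.996), and Dio3 to Gm4349 (0.997), 1110002J07Rik (0.996) and Zfp990 (0.996). Mirg, the tested member that was not called, had the weakest matches, Ttc12 (0.981), Rgs11 (0.980) and Pus7l (0.972). No member was among the 3 closest genes of another member, which does not show that the members move apart. Of all genes tested, 61.4% were called between the cell types. A high r can come from that difference alone, and no partners are read from these matches.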

How the data were processed

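The values the authors deposited are estimated counts for whole genes, raw and with both alleles together, and each cell type has its own table. Libraries were polyA+ SMART-Seq v4 cDNA. STAR 2.7 and mm10 are named in the submitters' processing notes, and the counter used for these bulk tables is not given in the sources used here. Each table holds genes with at least 10 counts over its 3 libraries. Replicates were separate cultures per the study, and p-values measure the spread between these libraries. Floors cover counting error only.

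Estimated counts were rounded, and the 13001 shared genes were filtered with filterByExpr (530 removed) and tested with edgeR 4.0.16 in R 4.3.3 (TMM, quasi-likelihood test, threshold 0.05 after Benjamini-Hochberg adjustment). The SE is the log2 fold change over the square root of F. Other settings, DESeq2 1.42.0 among them, are given in the closing section. The main fit and DESeq2 were also tried on simulated counts in which far fewer genes changed than here. The members and lists were chosen with earlier results of these data known. Named were the members, the 3 largest changes past the threshold of each list and the 3 genes of highest r per member. Other genes were named after their values were seen. Protein sequences and allele-specific data were not used here. Figures were drawn with matplotlib 3.10.9 in Python 3.11.15.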

Additional observations from a re-analysis of the deposited data

How the results depend on the processing

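The calls of Meg3, Rian, Dlk1, Rtl1 and Dio3 and the missing call of Mirg kept their direction and their side of the threshold in every alternative that tested them: DESeq2, upper-quartile normalization, library totals without TMM or over whole tables, no filter, at least 10 counts in every library (which left out Dio3), counts not rounded, genes of either table with missing ones at 0 or 3 counts, a test against a 2-fold change, and leaving out each library. The adjusted p of Mirg ranged from 0.0792 to 0.769 over these, and its log2 fold change from 0.48 without S01 to 1.03 without S03. Leaving out a library, the log2 fold change ranged from 2.16 to 2.75 for Meg3, 1.83 to 2.22 for Rian, 1.78 to 2.28 for Dlk1, 1.58 to 2.22 for Rtl1 and 2.10 to 2.65 for the summed RNAs, and for Dio3 from −6.56 without S06 to −4.44 without S05. Against a 2-fold change, 2174 genes were higher and 1346 lower in CPCCs, as were 3 and 3 neighbours, and 1 gene was higher among those acting on imprints, since that test asks for a larger change. It called 0 Notch genes lower, and 0 thyroid hormone genes higher and 0 lower. The Notch genes called lower numbered 1 to 2 when a library was left out, 1 without S01 and 1 without S03. The difference in log2 ratio of noncoding to coding counts was 1.60. It was 0.46 for Meg3 to Dlk1 alone and 0.54 without Dio3, both settings chosen after seeing the data. With a library left out it was 1.36 to 1.74. This difference was not planned in any of its settings, though the ratio per library was. Of the levels per kb, 8 moved by over 1 SD with another transcript length and 20 did not. A setting for genes missing from a table was not needed for the members. No paired analysis was possible because the columns carry no replicate numbers. Depth limits Begain and the size of the fall of Dio3.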
